A study of Mus musculus with 4 samples.

Results

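The transcription factors described here are Atoh1, Gfi1, Spdef, Creb3l1, Foxa1, Foxa2 and Foxa3, 7 of the 32285 genes counted. They were taken by name, as known regulators of secretory fate and of goblet or Paneth cell maturation, and all 7 had counts in both pools of cells. The cells came from the distal small intestine of Lgr5-EGFP-IRES-CreERT2;Rosa26-mTmG mice, all given 4-OH-tamoxifen, in which Cre made in Lgr5+ stem cells switches a membrane reporter to GFP in the stem cell and its offspring. GFP-high cells, called clones here, were sorted from 4 mice traced for 48 h (mice 1 to 4) and 4 mice traced for 72 h (mice 5 to 8). GFP-negative cells of the same 8 mice, called control, are non-recombined epithelium of the same genotype and drug treatment. Each mouse carried its own hashtag antibody, and each of 2 pools held the clones of 4 mice and the control cells of the other 4. The Lgr5 locus drives both EGFP and CreERT2 in these mice, so GFP of the Lgr5 allele and GFP of the recombined reporter cannot be told apart in the GFP-high gate. The age of the mice was not given in the sources used here.

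Secretory cells of the gut arise from stem cell offspring that escape Notch signalling. Notch keeps Atoh1 off through Hes repressors, and a cell that turns Atoh1 on also makes Notch ligands that hold its neighbours in the absorptive fate. Atoh1 is a basic helix-loop-helix activator that all the main secretory types of the mouse intestine need. Gfi1 is a zinc finger repressor downstream of Atoh1 that directs precursors towards goblet and Paneth cells and away from the enteroendocrine fate. Spdef is an ETS factor of goblet and Paneth cell maturation. Creb3l1 is a basic leucine zipper factor held in the endoplasmic reticulum membrane until it is cut, and is needed for goblet cell maturation in the mouse colon. Foxa1 and Foxa2 are forkhead pioneer factors with roles in mouse goblet and enteroendocrine differentiation, and Foxa3 is the third gene of the same family.

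After filters, 1993 cells with 1 hashtag remained, with a median of 18684 unique molecular identifiers (UMIs, the counted molecules) per cell. They comprised 110 clone cells at 48 h, 586 control cells at 48 h, 631 clone cells at 72 h and 666 control cells at 72 h. The clones at 48 h were few, with 4, 15, 83 and 8 cells in mice 1 to 4, and those of mouse 3 were unlike the others. Their median was 1841 UMIs, against 5662 to 19517.5 in the clones of the other 3 mice at 48 h, and in 60 of the 83 the assigned hashtag held under 70% of the hashtag counts. Markers of cells outside the epithelium were low: endothelial markers summed to at most 0.107 counts per 10000 UMIs in any group, with Cdh5 and Kdr at 0 in all 4, and stromal markers to at most 0.134. Immune markers, 9 genes of which 1 is Cd74, an MHC class II partner that epithelium can also make, summed to 16.9 and 11.3 counts per 10000 in clones at 48 h and 72 h, against 13.3 and 8.73 in control at 48 h and 72 h, and their part in the results was not tested.

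Cells were grouped into classes by expression with the 7 factors left out of both the clustering and the naming, so the factors' levels in the classes were not used to make them. The names, X-like in each case, came from marker genes, by which 238 cells were secretory progenitors, 211 goblet, 66 Paneth and 50 dividing secretory. Outside these there were 431 stem and 615 dividing cells, 173 enterocytes, 48 tuft cells and 34 enteroendocrine cells. The split between progenitors and goblet cells depends on the settings: the leading genes of the progenitor cluster held 4 progenitor and 4 goblet markers, 81 cells were named progenitors at Leiden resolution 1.5, and none without the highest 6% of doublet scores, where a cluster of 227 cells led by Agr2 was named goblet, nor with the mitochondrial limit at 50%. The leading genes of the dividing secretory cluster held 8 markers of dividing cells and no secretory marker, and its name rests on most progenitor markers being at least 1.5 times their level in other cells. A further 90 cells led by Gsdmc2 and 37 cells of low depth led by Gm10800 were left unnamed. Levels in classes are described without a test, since the classes were built from the same cells. Levels are counts of a gene per 10000 UMIs of all genes, summed over the cells of a mouse and class, and are means over mice with at least 10 such cells.

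Windows of 300 bases around the RefSeq starts of the factors, from 250 bases before to 50 after, are shown for 5 genes, to give the letters at the starts of these factors with and without the patterns below. RefSeq tables held a window for 6 of the 7 (mouse build GRCm38.p6, the build called mm10), and Creb3l1 had no entry. Capitals mark matches on either strand to 3 letter patterns: the E-box CANNTG read by basic helix-loop-helix factors, TGTTTAC read by forkhead factors, and TGACGT, the half-site read by the CREB family.

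Atoh1: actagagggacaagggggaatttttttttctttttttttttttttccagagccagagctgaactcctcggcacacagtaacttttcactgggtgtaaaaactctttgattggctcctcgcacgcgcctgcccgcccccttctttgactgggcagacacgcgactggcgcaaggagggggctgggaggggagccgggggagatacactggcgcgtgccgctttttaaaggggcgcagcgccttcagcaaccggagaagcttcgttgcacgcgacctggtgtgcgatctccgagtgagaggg
Gfi1: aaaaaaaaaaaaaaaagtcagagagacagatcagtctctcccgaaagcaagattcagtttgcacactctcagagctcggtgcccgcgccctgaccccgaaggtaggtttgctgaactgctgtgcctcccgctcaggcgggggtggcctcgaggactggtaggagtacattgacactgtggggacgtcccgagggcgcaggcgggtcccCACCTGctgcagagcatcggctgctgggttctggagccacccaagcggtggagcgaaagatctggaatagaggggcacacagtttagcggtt
Spdef: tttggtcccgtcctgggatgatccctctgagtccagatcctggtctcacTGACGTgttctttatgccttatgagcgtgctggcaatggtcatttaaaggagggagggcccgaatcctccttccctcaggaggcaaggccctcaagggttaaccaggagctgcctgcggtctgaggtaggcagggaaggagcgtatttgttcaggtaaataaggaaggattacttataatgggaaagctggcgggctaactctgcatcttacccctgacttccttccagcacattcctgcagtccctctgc
Foxa3: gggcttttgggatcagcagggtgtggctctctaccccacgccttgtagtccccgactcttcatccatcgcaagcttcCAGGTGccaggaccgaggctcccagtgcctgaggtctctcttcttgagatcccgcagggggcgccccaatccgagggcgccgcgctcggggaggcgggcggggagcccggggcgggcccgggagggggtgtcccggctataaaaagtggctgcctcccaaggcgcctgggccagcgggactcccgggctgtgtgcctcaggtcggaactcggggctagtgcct
Foxa1: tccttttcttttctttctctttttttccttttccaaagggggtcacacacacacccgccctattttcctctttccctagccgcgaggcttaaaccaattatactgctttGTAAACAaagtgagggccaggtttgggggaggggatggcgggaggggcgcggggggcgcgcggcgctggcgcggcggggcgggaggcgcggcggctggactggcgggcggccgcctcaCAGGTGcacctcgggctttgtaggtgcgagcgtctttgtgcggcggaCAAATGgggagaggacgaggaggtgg

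The Atoh1 window is chr6:64728875-64729174 on the plus strand, and Atoh1 lies at chr6:64729125-64731245. The others are on the minus strand: Gfi1 at chr5:107725756-107726055, Spdef at chr17:27728902-27729201, Foxa3 at chr7:19023490-19023789 and Foxa1 at chr12:57546062-57546361. The Gfi1 window held the E-box CACCTG 42 bases before the start, and Foxa3 the E-box CAGGTG 173 bases before it. Foxa1 held CAGGTG 23 bases before the start, CAAATG 24 bases after it and the forkhead pattern, read as GTAAACA on this strand, 141 bases before it. Spdef held TGACGT 201 bases before the start, and the Atoh1 window held none of the 3. These distances count from the RefSeq start. For Gfi1 and Foxa1 that start lies 231 and 805 bases inside the gene as GENCODE places it. For Atoh1, Spdef and Foxa3 it lies within 4 bases of the GENCODE start. A second Gfi1 window, at chr5:107724294-107724593, and 1 of 3 Foxa2 windows held an E-box each, the other 2 of Foxa2 held none of the patterns, and these 4 are not printed. Of 32851 such mouse windows, 72.3% held an E-box, 3.65% the forkhead pattern and 7.51% the CREB half-site, so a match is a description of these letters and not a binding site. GENCODE places no other gene over Atoh1, Spdef, Creb3l1 or the Foxa genes. Gfi1 overlaps A430072P03Rik on the opposite strand, and since the strand used in counting is not given in the sources used here, reads of the 2 genes cannot be told apart if strand was not used, but that gene had 1 UMI in all kept cells against 374 for Gfi1.

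Atoh1, Gfi1, Spdef and Creb3l1 marked the same classes. Atoh1 averaged 1.58 ± 0.38 counts per 10000 in secretory progenitors and 1.76 ± 0.25 in goblet cells (SD, n = 8 mice each), 1.74 ± 0.55 in dividing secretory cells (n = 3) and 2.44 in Paneth cells (n = 2). In stem cells it averaged 0.027 ± 0.021 (n = 7), in dividing cells 0.027 ± 0.021 (n = 8) and in enterocytes 0.0013 ± 0.0032 (n = 6). No mouse with at least 10 cells in both had a stem or dividing value near its progenitor value: the highest stem value was 0.058 and the lowest progenitor value 0.854. The ranges of progenitor, goblet and dividing secretory cells over mice overlapped. The Paneth values of the 2 mice lay above those of goblet cells, but over all 7 mice with a Paneth cell they ran from 0.683 to 3.07, so no order is given among the 4 secretory classes. Summed over all cells Atoh1 had 2.01 counts per 10000 in dividing secretory, 1.97 in Paneth, 1.80 in goblet and 1.61 in progenitor cells. In clones alone Paneth cells had the lowest sum of the 4, under the 1.62 of progenitors. Stem and dividing cells were far below these 4 classes and did not differ beyond their spread, and enterocytes were lower still. Between them and the 4 classes lay the 34 enteroendocrine cells, with 0.0673 counts per 10000 from 4 UMIs. The 37 unnamed cells of low depth lay there too, with 0.886 from 7 UMIs. Goblet cells exceeded progenitors in 6 of 8 mice, and the progenitor minus goblet difference of -0.178 ± 0.262 counts per 10000 was smaller than its SD over mice.

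Gfi1 was raised in the same 4 classes, with 374 UMIs in all. It averaged 0.242 ± 0.062 in progenitors and 0.269 ± 0.103 in goblet cells (n = 8 each), 0.316 ± 0.073 in dividing secretory cells (n = 3), and 0.0026 ± 0.0070 in stem cells (n = 7). Spdef averaged 1.64 ± 0.50 in progenitors and 1.52 ± 0.27 in goblet cells, 1.28 ± 0.29 in dividing secretory cells and 0.017 ± 0.023 in stem cells, over the same mice. Mouse 2, which had 9 stem cells and so is outside these means, held 9 of the 25 Spdef UMIs of stem cells (0.494 counts per 10000), and all stem cells summed to 0.0385. Neither gene had a UMI in the 90 cells led by Gsdmc2. The 37 unnamed cells of low depth had 0.886 counts per 10000 of Spdef, from 7 cells. Creb3l1 averaged 3.53 ± 0.36 in progenitors, 3.12 ± 0.69 in goblet cells, 3.30 ± 0.12 in dividing secretory cells and 0.172 ± 0.102 in stem cells. In enterocytes it averaged 0.084 ± 0.032 (n = 6), 2.99% of its level in goblet cells when all cells of each class were summed. The same ratio was 0.244% for Atoh1, 0.201% for the goblet mucin Muc2 and 0.268% for Tff3, so the Creb3l1 ratio was above that of the goblet product genes.

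The 4 classes of secretory progenitor, dividing secretory, goblet and Paneth cells held 34.7% of all UMIs. They held 97.0% of the UMIs of Atoh1, 97.9% of Gfi1, 97.1% of Spdef and 92.0% of Creb3l1. For the forkhead genes the shares were lower, at 57.7% for Foxa1, 63.4% for Foxa2 and 79.1% for Foxa3. By this share the 7 factors fell into a set of 4 with at least 92.0% of their UMIs in those classes and a set of 3 with 57.7% to 79.1%. Foxa3 lay nearest to the first set.

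**Figure D1:**
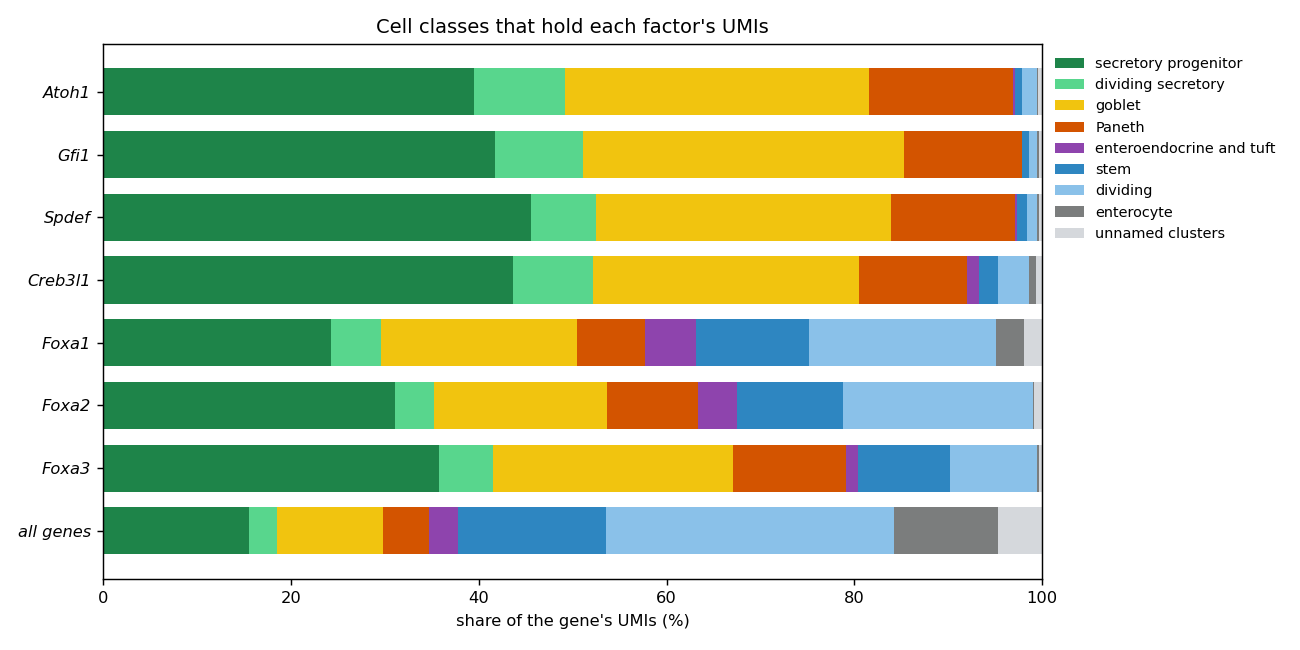
Each bar splits the UMIs of 1 factor over the cell classes, as a percentage of that factor's UMIs in all 1993 cells, with all genes together in the lowest bar. The 4 secretory classes on the left hold 92.0% to 97.9% of Atoh1, Gfi1, Spdef and Creb3l1, 57.7% to 79.1% of the Foxa genes, and 34.7% of all genes.

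Foxa1, Foxa2 and Foxa3 were higher in the secretory classes but were also present in stem and dividing cells. Foxa1 averaged 0.778 ± 0.166 in progenitors and 0.817 ± 0.197 in goblet cells (n = 8 each), 0.377 ± 0.085 in stem cells (n = 7), 0.294 ± 0.067 in dividing cells (n = 8) and 0.155 ± 0.065 in enterocytes (n = 6). Foxa2 averaged 0.259 ± 0.062 in progenitors, 0.202 ± 0.071 in goblet cells, 0.095 ± 0.027 in stem cells, 0.085 ± 0.023 in dividing cells and 0.0013 ± 0.0032 in enterocytes. Foxa3 averaged 1.22 ± 0.26 in progenitors, 1.23 ± 0.16 in goblet cells, 0.412 ± 0.174 in stem cells, 0.150 ± 0.077 in dividing cells and 0.013 ± 0.016 in enterocytes. Foxa3 was thus higher in stem than in dividing cells, by 0.270 ± 0.213, in 7 of 7 mice with both, and Foxa1 by 0.090 ± 0.079 in 7 of 7, with the gates together. Summed over the cells of a gate, Foxa1 had 0.373 in stem and 0.264 in dividing cells of control, but 0.374 and 0.398 in those of clones. Foxa3 had 0.350 and 0.113 in control and 0.332 and 0.240 in clones. Foxa2 did not differ between stem and dividing cells beyond its spread, at 0.012 ± 0.043, with 4 of 7 mice higher in stem cells. Foxa2 and Foxa3 were both lower in enterocytes than in dividing cells in 6 of 6 mice.

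Enteroendocrine and tuft cells divided the factors further. Of 34 enteroendocrine cells, none had a UMI of Gfi1 or Spdef, which allows a share of cells with a UMI of up to 8.82% (3 counts of the total; Wilson upper bound 10.2%), and 4 had Atoh1 (11.8%, Wilson 95% interval 4.67% to 26.6%). In the same cells Foxa1 was seen in 26 (76.5%, 60.0% to 87.6%), Creb3l1 in 23 (67.6%, 50.8% to 80.9%), Foxa3 in 12 and Foxa2 in 10. Foxa1 thus had 1.56 counts per 10000 in enteroendocrine cells, against 0.898 in goblet cells and 0.764 in progenitors when the cells of each class were summed, and this was its highest class. Only 1 mouse had 10 or more enteroendocrine cells, with 2.24 counts per 10000 of Foxa1, so these values have no spread over mice. Of 48 tuft cells, none had Atoh1 or Gfi1, which allows up to 6.25% (Wilson upper bound 7.41%), and 3 had Spdef, 12 Creb3l1, 11 Foxa1, 1 Foxa2 and 6 Foxa3. Tuft cells were shallower, with a median of 10108.5 UMIs against 19021 in goblet cells. These limits are on cells with a UMI, not on cells that express the gene: Gfi1 was seen in only 34.6% of goblet cells as counted and in 23 of 192 at 5000 UMIs per cell. The intervals and limits allow for counting error alone.

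**Figure D2:**
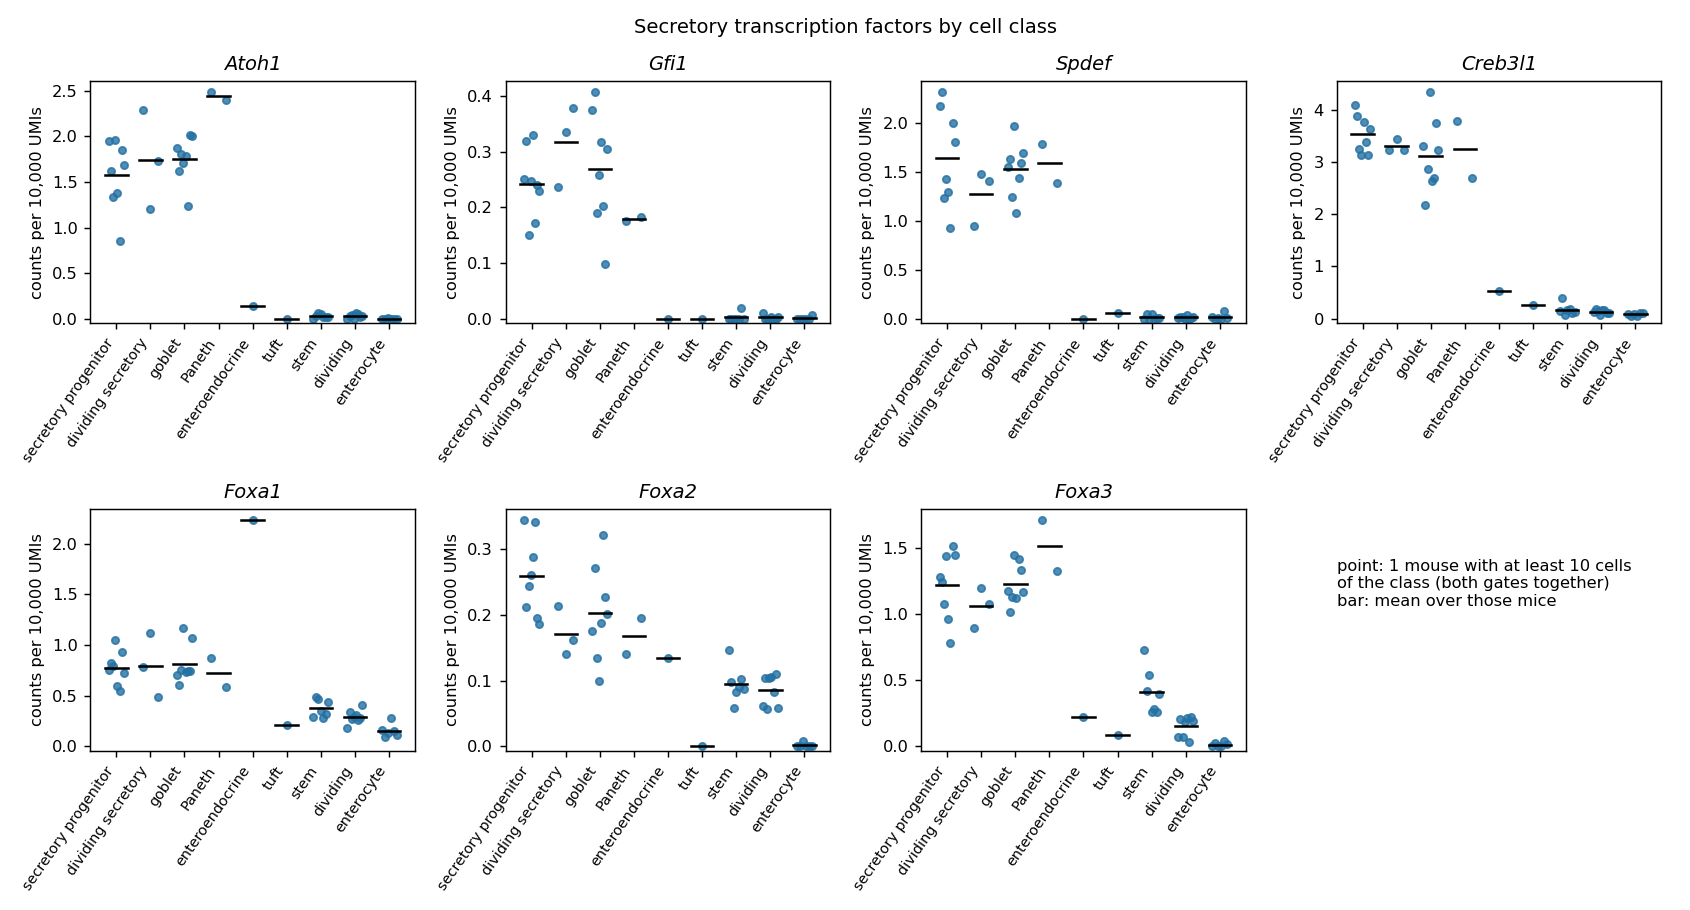
Each panel gives the counts of 1 factor per 10000 UMIs (vertical axis, from 0) in 9 cell classes, with a point for each mouse with at least 10 cells of the class and a bar for the mean of those mice. Atoh1, Gfi1 and Spdef are high in the first 4 classes and near 0 in stem, dividing and enterocyte cells. Creb3l1 is high in the same 4 classes and averages 0.172 in stem cells, above the 0.095 of Foxa2 there. Foxa1 and Foxa3 keep a higher level in stem cells, 0.377 for Foxa1 and 0.412 for Foxa3.

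To set detection side by side, each cell with at least 5000 UMIs was thinned to 5000. Atoh1 was then seen in 46.7% of secretory progenitors and 55.2% of goblet cells, against 0.845% of stem cells, 1.76% of dividing cells and 0% of enterocytes, where unthinned shares were 81.9%, 76.8%, 3.25%, 3.90% and 1.16%. The stem cells had a median of 15754 UMIs and the enterocytes, which should lack Atoh1, of 27594. At the thinned depth, 85.0% of 227 progenitors, 84.4% of 192 goblet cells and 82.5% of 63 Paneth cells had UMIs of 2 or more of the 7 factors. The share was 37.9% of 29 enteroendocrine cells, 4.45% of 922 stem and dividing cells and 0% of 156 enterocytes. Within progenitors, pairs were set against the number their separate shares give, as a description. Atoh1 was seen with Spdef in 58 of 227 cells where independence gives 54.6, and with Creb3l1 in 84 where it gives 83.6. Spdef and Foxa1 were seen together in 45 cells where independence gives 37.6, and Creb3l1 and Foxa3 in 90 where it gives 84.4. Atoh1 and Gfi1 were seen together in 8 where it gives 10.7, and Spdef and Foxa2 in 9 where it gives 12.4. In goblet cells both of these pairs went the other way, with 16 where independence gives 12.7 and 11 where it gives 8.34. In dividing secretory and in Paneth cells the pairs split in direction.

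**Figure D3:**
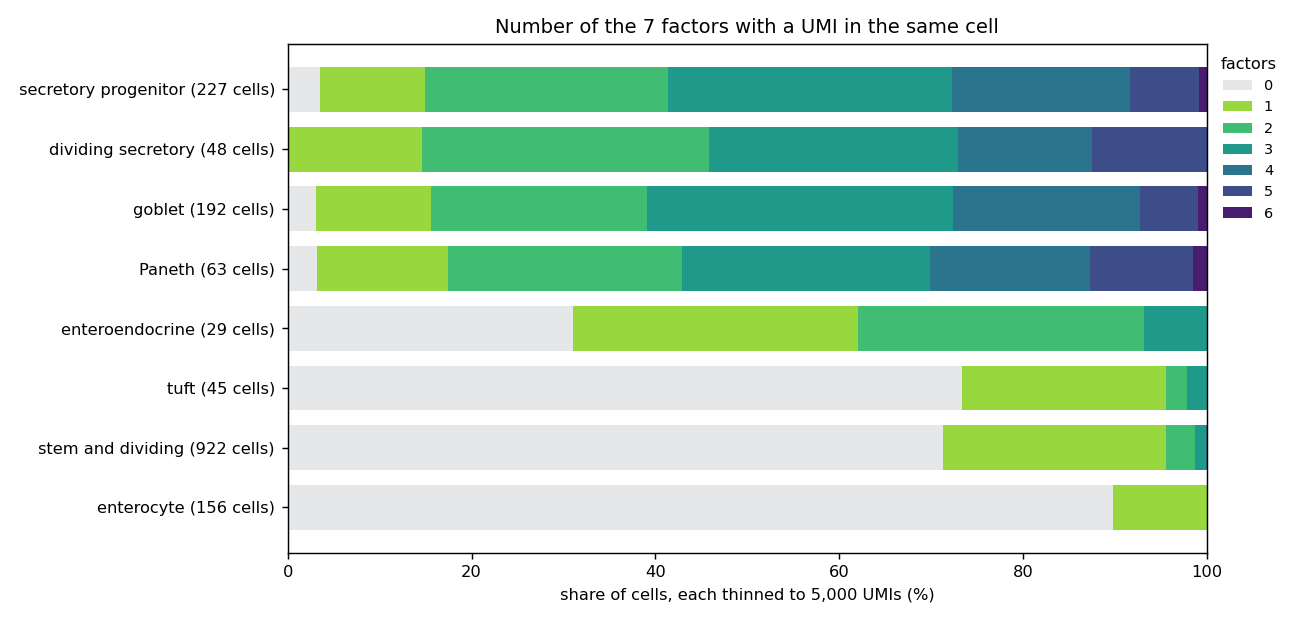
Bars give the share of cells of a class (horizontal axis, percent) with UMIs of 0 to 6 of the 7 factors after each cell was thinned to 5000 UMIs. In the 4 secretory classes 82.5% to 85.4% of cells had 2 or more factors, against 4.45% of stem and dividing cells.

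A few stem and dividing cells carried Atoh1. There were 38 such cells and 1008 without it, and the other factors were seen more often in the 38. Creb3l1 was seen in 47.4% of the 38 against 17.4% of the rest, Spdef in 13.2% against 2.08%, Foxa2 in 28.9% against 10.2%, Foxa3 in 39.5% against 25.8%, Foxa1 in 47.4% against 34.8% and Gfi1 in 2.63% against 0.496%. As levels, Creb3l1 had 0.593 counts per 10000 in the 38 cells and 0.121 in the rest. The 38 cells were chosen by a UMI of Atoh1, were deeper (median 20205.5 against 16059 UMIs), and may share droplets with secretory cells, so these values are a description. The doublet caller marked 2 of 2352 and 4 of 1797 barcodes of the pools and did not work as a filter, and doublets within 1 hashtag remain in all values.

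The factors' profiles were compared over 17 sums of a class and gate with at least 20 cells, by Pearson's r of log2(counts per 10000 + 0.1), as a description over sums that share 2 pools. Atoh1 lay close to Gfi1 (r = 0.97), Spdef (0.97), Creb3l1 (0.97) and Foxa3 (0.91), and further from Foxa2 (0.72) and Foxa1 (0.61). Among 9929 genes with at least 200 UMIs, those nearest to Atoh1 were Slc12a8 (0.98), Galnt7 (0.98), which starts mucin-type sugar chains, and the protein disulfide isomerase Pdia5 (0.98). Gfi1 was nearest to Irak3 (0.99), Slc17a9 (0.99) and Galnt7 (0.99). Spdef was nearest to the goblet cell stress sensor Ern2 (0.99), the endoplasmic reticulum retention receptor Kdelr3 (0.99) and Tpsg1 (0.98). Creb3l1 was nearest to the granule docking gene Sytl2 (0.98), the mucin glycosyltransferase Gcnt3 (0.98) and Tspan13 (0.98). The nearest genes of the forkhead factors lay further off: Txndc12 (0.96), Ddx50 (0.95) and Tmem56 (0.94) for Foxa1, Gxylt1 (0.96), Car8 (0.96) and 5330417C22Rik (0.96) for Foxa2, and the endoplasmic reticulum stress gene Herpud1 (0.96), Fam174b (0.96) and Pawr (0.95) for Foxa3.

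The first comparison asked whether cells of young clones differ in these factors from control epithelium, with all cells of a gate summed in each mouse. At 48 h, 2 of the 7 factors, Atoh1 and Creb3l1, fell in clones when each mouse's clones were set against its own control, and 0 of 7 passed without that mouse term. Atoh1 had 0, 0, 0.201 and 0.395 counts per 10000 in the clones of mice 1 to 4, against 0.988, 0.673, 0.522 and 0.973 in their control cells. The groups did not overlap, but the clone values rest on 11 UMIs in all, and the 0 of mouse 1 allows up to 0.387. The share of all genes without overlap was not counted, so overlap is given here and below as a description. The 6 of these UMIs in mouse 3 all lay in cells whose assigned hashtag held under 70% of the hashtag counts. In edgeR's quasi-likelihood test with the mouse term the log2 difference was -2.29 ± 0.46 (SE; 95% interval -3.26 to -1.32; adjusted p = 0.0260).

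Creb3l1 had 0, 0.287, 0.837 and 0.710 counts per 10000 in the 48 h clones, against 1.87, 1.52, 1.33 and 1.81 in control, with no overlap. Its edgeR log2 difference with the mouse term was -1.61 ± 0.33 (SE; -2.29 to -0.93; adjusted p = 0.0260). Spdef had 0, 0.410, 0.134 and 0.710 in clones, against 0.797, 0.849, 0.506 and 0.798 in control, lower in clones of 4 of 4 mice with overlapping ranges, and did not pass (-1.28 ± 0.42, adjusted p = 0.179 in edgeR with the mouse term). Foxa2, at 0 to 0.100 in clones against 0.107 to 0.168 in control, did not overlap either but rests on 6 clone UMIs and did not pass (-0.67 ± 0.57, adjusted p = 0.702 in the same fit). Gfi1, Foxa1 and Foxa3 were lower in clones of 3 of 4 mice each, with edgeR log2 differences of -1.21 ± 0.68, -0.62 ± 0.29 and -0.56 ± 0.25 and adjusted p of 0.483, 0.371 and 0.355.

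With the mouse term 0.896% of the 10606 genes tested passed at 48 h, 0.764% falling and 0.132% rising, and the median log2 difference was -1.21 over the 7 factors and -0.08 over all genes. Without the mouse term 0% of genes passed in edgeR (0 of 10606; 1271 at an unadjusted p under 0.05), with Atoh1 at -2.47 ± 0.64 (adjusted p = 0.234) and Creb3l1 at -1.68 ± 0.38 (adjusted p = 0.234). DESeq2 without the mouse term passed 0.622% of genes and the same 2 factors, and edgeR without the filter on low counts passed 2.18% of genes and 3 factors. Without mouse 3, whose clones stood apart, the edgeR values with the mouse term were -2.97 for Atoh1 (adjusted p = 0.0185) and -2.34 for Creb3l1 (adjusted p = 0.00620). Without mouse 1 or mouse 2 neither factor passed, with adjusted p of 0.164 and 0.261 for Atoh1 and 0.108 and 0.337 for Creb3l1.

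At 72 h none of the 7 factors passed, with or without the mouse term. Atoh1 had 0.369, 0.418, 0.438 and 0.589 counts per 10000 in the clones of mice 5 to 8, against 0.482, 0.392, 0.620 and 1.00 in control. Creb3l1 had 0.801, 1.17, 0.735 and 1.18 in clones, against 0.966, 1.11, 1.08 and 1.63 in control. Both were lower in clones of 3 of 4 mice, mouse 6 being the exception, and their ranges overlapped. Spdef had 0.267, 0.676, 0.266 and 0.538 in clones, against 0.341, 0.419, 0.631 and 0.827 in control, and again only mouse 6 was higher in clones. Foxa2, at 0.0942 to 0.151 in clones and 0.119 to 0.161 in control, was lower in clones of 2 of 4 mice, as were Foxa1 and Foxa3. With the mouse term the edgeR log2 differences were -0.50 ± 0.20 for Atoh1 (adjusted p = 0.231), -0.36 ± 0.20 for Creb3l1 (0.406), -0.43 ± 0.21 for Spdef (0.352) and -0.44 ± 0.27 for Gfi1 (0.478). Foxa1 (-0.02 ± 0.15), Foxa2 (-0.09 ± 0.21) and Foxa3 (-0.24 ± 0.13) were nearest to 0, and the 95% interval of Foxa1, -0.33 to 0.29, holds differences of either sign. In that fit 1.87% of genes passed (0.745% rising, 1.12% falling), and without the mouse term 0% did (842 at an unadjusted p under 0.05).

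**Figure D4:**
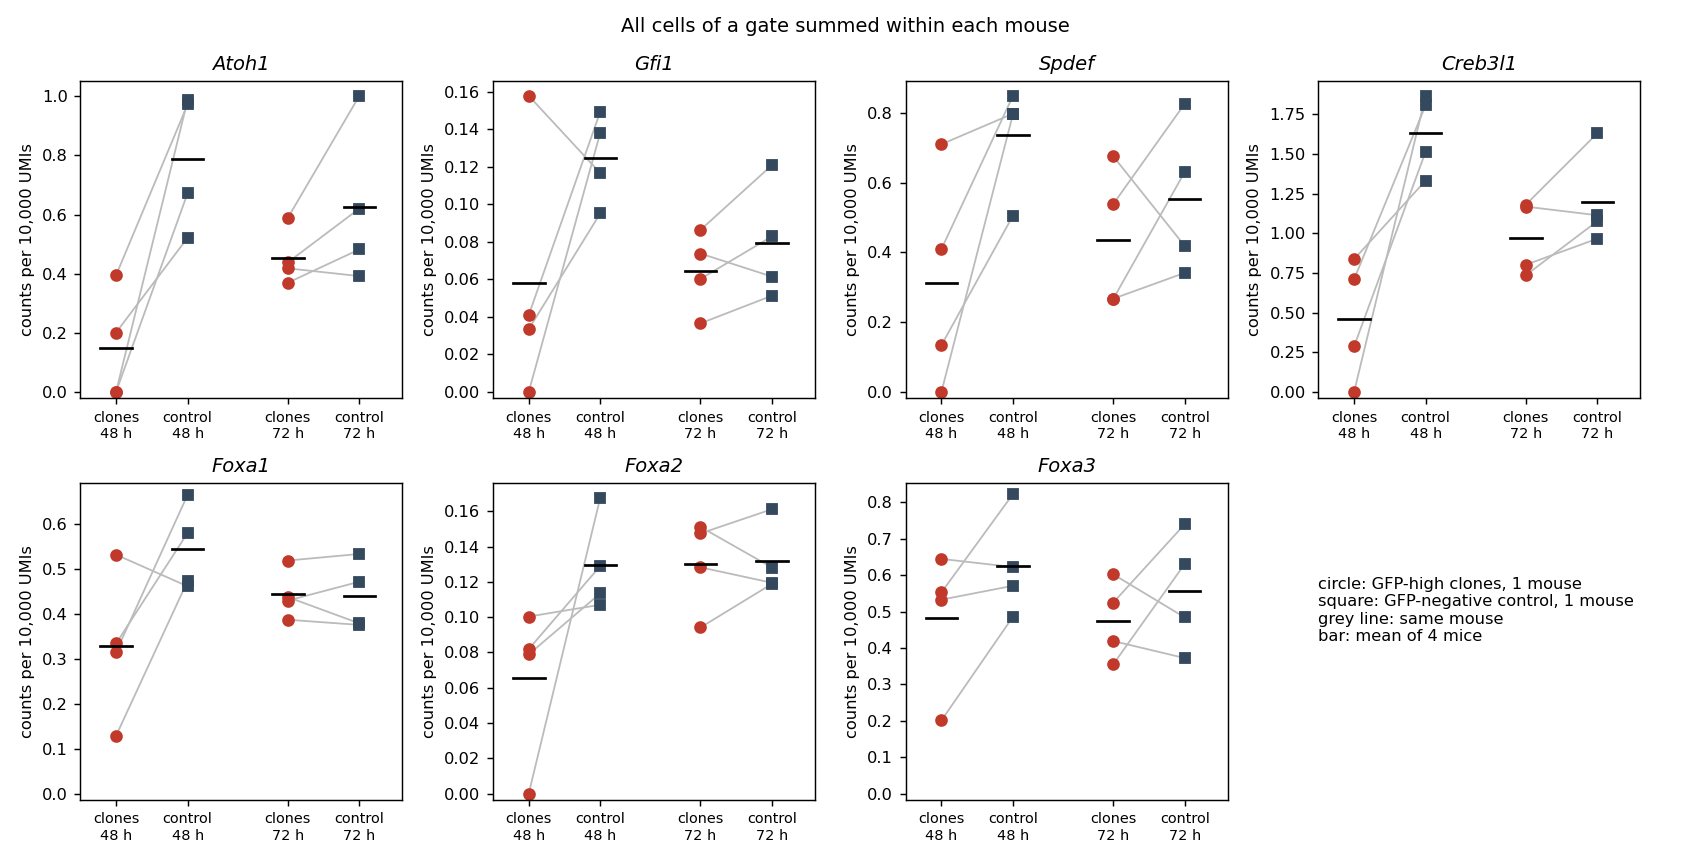
Each panel gives the counts of 1 factor per 10000 UMIs (vertical axis, from 0) in all cells of a gate, with clones as circles left of control as squares, 48 h before 72 h, a grey line between the gates of 1 mouse and a bar for the mean of 4 mice. Atoh1, Creb3l1 and Foxa2 in the 48 h clones lie below all 4 control values, Foxa2 on 6 clone UMIs, and at 72 h the gates overlap for all 7 factors. The share of all genes without overlap was not counted.

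Over both times together, edgeR with the mouse term passed 3 factors, all lower in clones: Atoh1 at -1.39 ± 0.25 (SE; adjusted p = 0.00475), Creb3l1 at -0.98 ± 0.19 (adjusted p = 0.00833) and Spdef at -0.86 ± 0.23 (adjusted p = 0.0425). That compares with 3.31% of all genes falling, 1.19% rising and 4.5% in either direction. The other 4 had log2 differences of -0.82 ± 0.36 for Gfi1, -0.40 ± 0.14 for Foxa3, -0.38 ± 0.31 for Foxa2 and -0.32 ± 0.16 for Foxa1, with adjusted p of 0.218, 0.123, 0.564 and 0.302. Without the mouse term 0 of the 7 passed, where 0.00943% of genes did, with Creb3l1 nearest (adjusted p = 0.0916). Atoh1 passed with the mouse term when any 1 mouse was left out, Creb3l1 in all but the fit without mouse 2 (adjusted p = 0.0625), and Spdef only in the fits without mouse 4 or mouse 6 (adjusted p = 0.0107 and 0.00295), reaching 0.230 without mouse 2.

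Between the times, clones at 72 h against clones at 48 h gave edgeR log2 differences of 1.74 ± 0.68 for Atoh1 and 0.97 ± 0.39 for Creb3l1, and none of the 7 passed (adjusted p = 0.781 each, with 0% of genes passing and 664 at an unadjusted p under 0.05). Control cells at 72 h against 48 h differed by -0.25 ± 0.30 for Atoh1 and -0.36 ± 0.26 for Creb3l1, and none of the 7 passed where 0.0849% of genes did. The change of the clone-control difference from one time to the other was 1.79 ± 0.53 for Atoh1 and 1.25 ± 0.39 for Creb3l1 with the mouse term, and was past the threshold for none (adjusted p = 0.578 and 0.619 in edgeR; 0.0943% of genes passed, and 0% without the mouse term). Without the filter on low counts 2 factors passed in edgeR without the mouse term, Atoh1 and Creb3l1: clones at 72 h against 48 h by 1.78 and 1.01 on the log2 scale (adjusted p = 0.000649 and 0.0150, with 0.674% of 19588 genes passing), and the change of the difference by 2.02 and 1.35 (adjusted p = 0.000396 and 0.00282, with 0.587% of genes passing). The call between times thus depends on the filter.

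The mix of classes moved with these results. The 4 secretory classes, formed without the factors, made up 8.82% ± 11.1 of cells per mouse in the 48 h clones against 37.5% ± 6.49 in control, and 22.9% ± 11.5 against 31.8% ± 7.44 at 72 h (mean ± SD over 4 mice). In all, 6 of the 110 clone cells at 48 h were in these classes, and 138 of 631 at 72 h. These cells held 5 of the 11 Atoh1 UMIs and 10 of the 41 Creb3l1 UMIs of clones at 48 h, against 964 of 979 and 1941 of 2051 in control. At 72 h they held 94.2% of the Atoh1 UMIs of clones and 97.8% of those of control. Fewer secretory cells and less of a factor per cell cannot be told apart in sums over all cells, so the gates were also compared within a class at 72 h, the 48 h clones holding too few cells.

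Within secretory progenitors and goblet cells as 1 class, added after seeing the data, no factor passed the test between the gates at 72 h. The edgeR log2 differences were 0.09 ± 0.20 for Atoh1, 0.15 ± 0.28 for Gfi1, 0.00 ± 0.22 for Spdef, 0.01 ± 0.16 for Creb3l1, -0.13 ± 0.22 for Foxa1, -0.15 ± 0.33 for Foxa2 and -0.21 ± 0.19 for Foxa3. None passed (adjusted p = 1.00 each), where 0% of 6674 genes did, and with the mouse term none passed where 0.135% did. The 95% interval was -0.34 to 0.53 for Atoh1 and -0.34 to 0.37 for Creb3l1, so a change by more than 0.53 in either direction lies outside the interval for both, while Foxa2, at -0.85 to 0.55, is less well fixed.

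Dividing cells held enough UMIs to test 4 of the factors and stem cells 3, Atoh1, Gfi1 and Spdef being too low for a test in both. In dividing cells the log2 differences of the 4 were positive, that is higher in clones: Foxa3 by 1.01 ± 0.33, Creb3l1 by 0.75 ± 0.41, Foxa1 by 0.59 ± 0.20 and Foxa2 by 0.17 ± 0.41 on the log2 scale of edgeR. None passed over the 8432 genes (adjusted p = 0.606, 0.952, 0.707 and 1.00; 0% of genes passed). With the mouse term the values were 0.82 ± 0.27, 1.09 ± 0.34, 0.56 ± 0.21 and 0.40 ± 0.35, and again none passed (adjusted p = 0.192, 0.174, 0.283 and 0.723) where 1.38% of genes did. In stem cells Foxa3 differed by 0.19 ± 0.27, Creb3l1 by -0.10 ± 0.39 and Foxa1 by -0.02 ± 0.25, with 0% of genes passing without the mouse term and 0.0437% with it. For stem and dividing cells together none of the 4 passed, against 0.011% of genes without the mouse term and 1.76% with it.

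**Figure D5:**
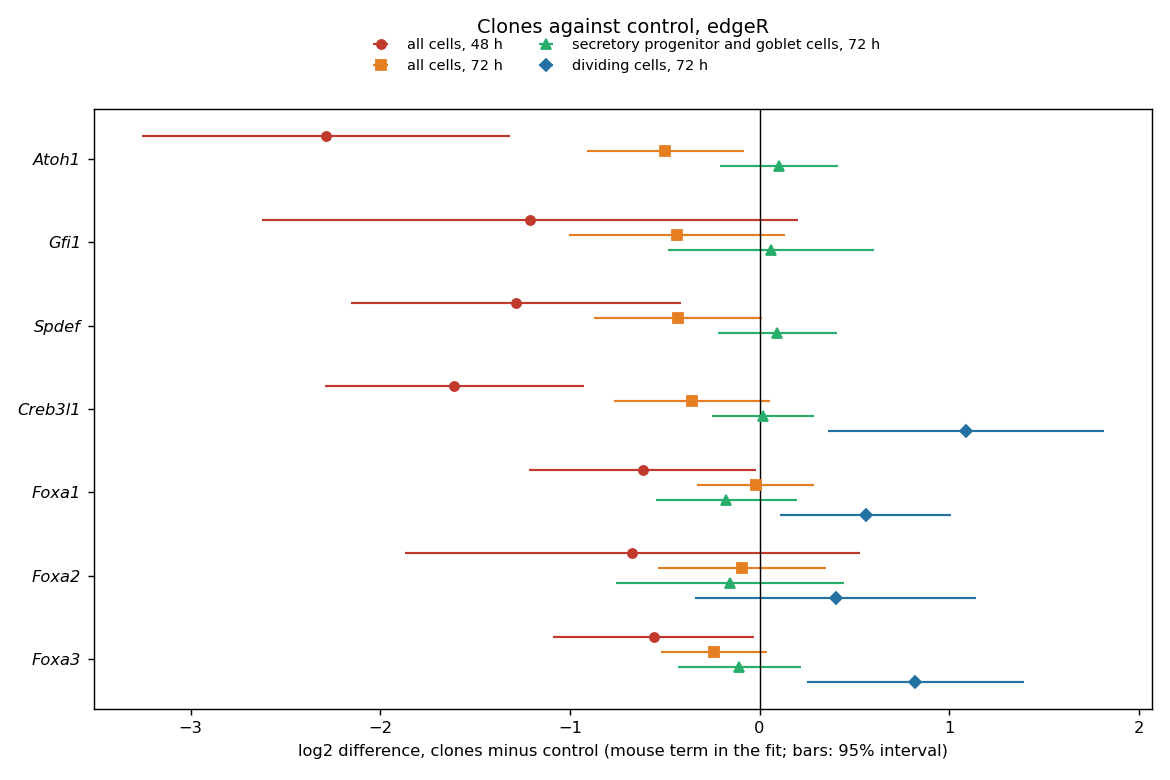
Points give the log2 difference of clones minus control for each factor in edgeR with the mouse term, and bars its 95% interval, in all cells at 48 h and 72 h, in secretory progenitor and goblet cells at 72 h and in dividing cells at 72 h. The differences run from -2.29 for Atoh1 in all cells at 48 h to 1.09 for Creb3l1 in dividing cells, and those within progenitor and goblet cells run from -0.18 to 0.10.

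The share of stem and dividing cells with a UMI, at 5000 UMIs per cell, was compared in the 4 clone and 4 control sums at 72 h by an exact permutation test, two-sided, in which 0.0286 is the smallest p that 4 against 4 can give. Foxa2 was seen in 4.70% ± 0.62 of clone cells and 2.47% ± 1.73 of control cells (SD, n = 4 each; exact p = 0.0286, unadjusted over 7 comparisons). Its clone values ran from 4.14% to 5.56% and its control values from 0% to 3.88%, without overlap. Foxa3 was seen in 9.11% ± 2.74 and 6.36% ± 2.25 (exact permutation p = 0.171), and Atoh1 in 1.91% ± 1.45 and 1.13% ± 0.92 (exact permutation p = 0.429). The Foxa2 result did not hold at 2000 UMIs per cell, where clones were lower by 1.65 percentage points (exact permutation p = 0.229). With mice kept as pairs at 5000 UMIs, the share was higher in clones of each mouse (exact sign-flip p = 0.125). That is the smallest p that 4 pairs can give, so the paired test could not pass and decides nothing here. As counted, without thinning, only Atoh1 reached 0.0286, at 5.64% ± 3.14 of clone cells and 1.59% ± 1.21 of control cells (n = 4 each, exact permutation test).

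The other genes of the pathway were read from lists of genes in the same fits, over both times with the mouse term, where 1.19% of genes rose and 3.31% fell; without that term none of the listed genes passed. Of the Notch genes 9 of 12 were tested, 2 rose and 1 fell: the repressor Hes1 by 0.79 ± 0.13 (SE), the receptor Notch1 by 0.87 ± 0.20 and the ligand Dll4 by -1.49 ± 0.35 on the log2 scale (edgeR adjusted p = 0.00270, 0.0207 and 0.0196). Dll1, a ligand made by secretory precursors, had -0.53 ± 0.19 and did not pass (adjusted p = 0.119). The median log2 difference was -0.14 over the tested Notch genes and -0.04 over all genes.

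Of 21 other secretory lineage factors 15 were tested, 3 rose and 5 fell, with a median of -0.78. Those that rose were Sox4 (0.90 ± 0.18), Sox9 (0.56 ± 0.13) and Ascl2 (0.94 ± 0.22), which are also factors of the crypt base and, for Ascl2, of the stem cell itself. Those that fell were the unfolded protein response factor Xbp1 (-0.73 ± 0.15), Klf4 (-0.78 ± 0.13), a factor of goblet and other differentiated cells, the enteroendocrine factor Neurod1 and, named after their values were seen, Bhlha15 (-1.87 ± 0.52) and Cbfa2t3 (-0.76 ± 0.18). Neurod1 rests on few cells, with UMIs in 2 of 110 and 7 of 631 clone cells at 48 h and 72 h against 17 of 586 and 11 of 666 control cells, and no fold is given for it.

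Most goblet products and most of the secretory machinery fell as well. Of 15 goblet products 14 were tested and 13 fell, with a median of -1.54: the lectin Zg16 (-2.07 ± 0.33), Tff3 (-1.60 ± 0.37), Spink4 (-1.57 ± 0.33), the mucus protein Fcgbp (-1.80 ± 0.31) and Sytl2 (-1.50 ± 0.24) were among them, with edgeR adjusted p of 0.00236, 0.0190, 0.0129, 0.00305 and 0.00256. At 48 h alone 10 of the 14 fell, where 0.764% of all genes fell, and at 72 h none did, where 1.12% fell. Of 12 Paneth products 10 were tested and 6 fell, with a median of -0.94, among them the protease Mmp7 (-1.07 ± 0.19), the defensin Defa24 (-1.50 ± 0.26), the lysozyme Lyz1 (-1.11 ± 0.30) and the lectin Itln1 (-1.43 ± 0.30). Here 1 fell at 48 h and 6 at 72 h, against the same shares of all genes, and on simulated counts the fit with the mouse term made more false calls at 72 h than its nominal share. At 48 h Lyz1 had 2.396 counts per 10000 in clones and 2.288 in control, and at 72 h 3.06 in clones and 14.7 in control. Itln1 had 3.33 in clones and 2.24 in control at 48 h, and 1.38 in clones and 11.5 in control at 72 h. The defensin Defa22, named after its values were seen, had 3.76 in clones and 0.259 in control at 48 h, and 0.427 in clones and 8.61 in control at 72 h. The 48 h clone values rest on few cells. Lyz1, Itln1 and Defa22 had UMIs in 23, 16 and 17 of the 110 clone cells. Of these 110 cells 1 was of the Paneth class, against 21 of the 586 control cells at 48 h. The classes of the cells with these UMIs were not counted. The median log2 difference of the Paneth products was -0.20 at 48 h and -1.82 at 72 h. For 72 h against 48 h, without the mouse term, their median was 2.26 in control and 0.81 in clones, with none passing. Over all genes these medians were -0.01 and 0.07. Of 20 genes of the endoplasmic reticulum and Golgi all were tested and 14 fell, with a median of -0.57, led by the chaperone Hspa5 (-0.77 ± 0.11, adjusted p = 0.00137), the retention receptor Kdelr2 (-0.69 ± 0.14), the disulfide isomerase Pdia6 (-0.74 ± 0.16) and the chaperone Hsp90b1 (-0.57 ± 0.13).

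Of 14 absorptive factors 11 were tested, 2 rose and none fell, with a median of 0.06. Hes1, which also stands among the Notch genes, and the vitamin D receptor Vdr (0.52 ± 0.11, adjusted p = 0.0138 in edgeR) rose, and Klf5 did not pass (-0.03 ± 0.09, adjusted p = 0.933). At 72 h alone Hes1 rose and Maf fell. The share of secretory cells given above was on average lower in clones at both times, with the larger gap at 48 h. The goblet products fell more at 48 h and the Paneth products more at 72 h. The part of this share in the lists was not tested. Stem cells made up a larger share of clones, 44 of 110 clone cells against 67 of 586 control cells at 48 h. At 72 h they were 31.2% of clone cells and 18.5% of control cells. Hes1, one of the genes that led a stem cluster, Notch1, Sox4, Sox9 and Ascl2 are listed with this share beside them, whose part was not tested either.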

How the data were processed

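Single cells were profiled in 2 libraries, each with a matrix of gene counts and hashtag antibody counts. The deposited values are raw UMI counts per gene and barcode, made by the authors with Cell Ranger 6.1.2 on build mm10, per the submitters' processing notes and the file headers. Strand settings, cell calling and filters are not given in the sources used here.

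Hashtags were called with HTODemux (Seurat 5.3.0, centred log ratios per cell, positive quantile 0.99). The labels tie each hashtag and pool to clones of 48 h, clones of 72 h or control. They give control hashtags no tracing time and name no mouse. Hashtags were taken as mice 1 to 8 from these lists and the layout of the pools. The pairing of gates within a mouse and the tracing time of control cells rest on this reading. So do the mouse term and each comparison that splits control by time. In the pools 2257 of 3342 and 1772 of 2110 barcodes carried 1 hashtag. Cells under 1000 UMIs, under 500 genes or over 20% mitochondrial UMIs were left out, and 1 barcode occurred in both pools, not among kept cells. Cells were clustered with scanpy 1.11.5 (2000 variable genes, 30 components, Leiden resolution 1), and clusters were named from marker lists, both without the 7 factors. Counts were summed per mouse and gate, and 16 sums of 77566 to 6370450 UMIs were tested with edgeR 4.0.16 (TMM, quasi-likelihood F-test, gate by time plus pool, Benjamini-Hochberg adjustment over all genes tested, threshold 0.05). All columns were used.

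Both gates come from the same animals, so the fit was also made with mouse as a block: same-mouse residuals correlated between -0.000762 and 0.0896 in mice 1 to 4 and between 0.222 and 0.555 in mice 5 to 8. Where the 2 fits differ, both are given. On simulated counts the fits recovered known changes, and at 72 h the fit with the mouse term made more false calls than its nominal share. DESeq2 1.42.0 and other filters, hashtag rules, doublet rules and clusterings were alternatives. Within a class, sums of at least 10 cells were used. In the text, genes other than the factors are the 3 nearest in profile to each factor, and of each list those with the lowest p (up to 5) and the 2 most abundant. The factors and lists were chosen with earlier results of these data known. Annotation was GENCODE M21, and promoter windows came from RefSeq.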

Additional observations from a re-analysis of the deposited data

Results flagged for a closer look

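Of 81 groups of 4 to 10 sums examined, 11 held a mouse far from the others by Dixon's criterion. Its chance rate of about 1 group in 20 holds for normally distributed values. A group with all but 1 mouse at 0 is always flagged, so the 11 are not set against that rate. Spdef in control cells at 48 h was 0.506 counts per 10000 in mouse 3, against 0.797 to 0.849 in the other 3 mice. Values by class are of mice with at least 10 cells of the class. Creb3l1 in stem cells was 0.391 counts per 10000 in mouse 3, against 0.0774 to 0.180 in the others.

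The other flags were of factors near 0, mostly a single mouse with any UMI. In enterocytes Atoh1 was 0.00783 counts per 10000 and Foxa2 0.00783 in mouse 5, Gfi1 was 0.00687 in mouse 8, and the other mice with at least 10 enterocytes were at 0 for each. Below that number, mouse 1 had 0.0525 of Atoh1 from 1 UMI in 8 enterocytes. Spdef in enterocytes was 0.0752 in mouse 7, against 0 to 0.0182 elsewhere. Gfi1 was 0.0185 in stem cells of mouse 7, the others with at least 10 stem cells being at 0 (mouse 2 had 0.0549 from 1 UMI in 9 cells), and 0.0102 in dividing cells of mouse 1, against 0 to 0.00339. Foxa2 in the unnamed cells led by Gsdmc2 was 0.0376 in mouse 8 alone among mice with at least 10 such cells. At 5000 UMIs per cell, Gfi1 was seen in 1.19% of clone stem and dividing cells of mouse 7, and Spdef in 0.775% of control stem and dividing cells of mouse 5, with the other 3 mice of each group at 0.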

How the results depend on the processing

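The count of factors called at 48 h and over both times depended on the mouse block. At 48 h it was 0 without and 2 with the replicate block, 3 with no filter on low counts, 2 in DESeq2 with or without the block, 2 with the block and a mitochondrial limit of 10% or 50%, a top hashtag of at least 70% or ratios centred per hashtag, and 3 with the block and Gaussian mixture hashtags. Over both times it was 0 without and 3 with the block, 3 with no filter, 2 in DESeq2 either way, 1 with the 10% limit, 1 with the 70% hashtag rule, 2 with Gaussian hashtags and 2 with ratios per hashtag. Together with the block those gave 3, 3, 4 and 3, and the 50% limit 4. Leaving out 1 mouse gave 0 at 48 h (0 to 3 with the block) and 0 to 1 over both times (1 to 3 with the block). With no filter 2 factors were called between the times in clones and 2 for the change of the difference. The share of all genes passing moved too. At 48 h it was 0% without and 0.896% with the block, and without the block 2.18% with no filter and 0.622% in DESeq2. Over both times it was 0.00943% without and 4.5% with the block. For the other settings at 48 h and over both times this share is not given here, so their counts do not set the factors apart from other genes. The cause of these changes was not tested. The share test called 1 factor as reported, and 0 at 2000 UMIs. It also called 0 with sign flips within mice (the block) and without any 1 mouse, where neither 4 pairs nor 3 against 3 can pass.

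The called Foxa2 share difference of 2.23 points turned to -1.65 at 2000 UMIs. The other differences that changed sign had not passed. Foxa1 at 72 h was 0.0374 and, with the block, 0.0409 at the 50% limit, and 0.00902 without the highest 6% of doublet scores. In stem cells Creb3l1 was 0.182 with the block. Foxa1 there was 0.337 at Leiden resolution 1.5, 0.0325 with the factors among the variable genes, 0.281 at the 50% limit, 0.00179 without called doublets and 0.00548 without the top 6%. Foxa3 there was -0.163 at resolution 1.5 and -0.273 without the top 6%, and Foxa2 in dividing cells -0.0105 at the 50% limit. In progenitor and goblet cells Spdef was -0.0183 with no filter, -0.00181 in DESeq2 and -0.00096 with the factors variable, Creb3l1 -0.00899 with no filter and -0.00477 without called doublets, and Foxa2 0.0876 without the top 6%. At 2000 UMIs the share differences were -0.244, -1.19 and -0.575 points for Atoh1, Creb3l1 and Foxa1, and Foxa1 was -0.269 without called doublets.

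Leaving out 1 mouse, log2 differences ran from -0.103 to 0.0634 for Foxa1 and -0.294 to 0.121 for Foxa2 at 72 h (with the block -0.0924 to 0.0122, with 0.00505 without mouse 5 and 0.00291 without mouse 8, and -0.196 to 0.118), from -0.0227 to 0.404 for Foxa3 in clones and -0.278 to 0.0336 in control between times, from -0.400 to 0.141 for Creb3l1, -0.0486 to 0.0362 for Foxa1 and -0.0363 to 0.425 for Foxa3 in stem cells, from -0.476 to 0.334 for Foxa2 in stem and dividing cells, and in progenitor and goblet cells from -0.224 to 0.242 for Atoh1, -0.0493 to 0.0535 for Creb3l1, -0.448 to 0.591 for Foxa2 and -0.603 to 0.203 for Spdef. Share differences ran from -0.440 to 1.13 points for Creb3l1 and -0.849 to 2.44 for Foxa1. The 110 clone cells limit the 48 h values.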
